A study of Mus musculus with 10 samples.

Results

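The comparison set 4 libraries from IL-4-treated (M2) mouse bone marrow-derived macrophages against 2 libraries from unstimulated (M0) macrophages, which are 6 of the 10 H3K27me3 ChIP-seq libraries of the study. The labels enter the material of these samples as total RNA and the library source as transcriptomic, while the files are lists of ChIP-seq regions and were treated as such. The cells came from C57BL/6 mice and were either Eif2ak3 fl/fl (WT) or Eif2ak3 fl/fl x LysMcre (KO), so that both genotypes carried the floxed alleles and only the KO carried the Cre, which LysM drives in myeloid cells. All cells were cultured for 7 days with 20 ng/ml M-CSF, M2 cells then received 20 ng/ml IL-4 for 24 h, and M0 cells received no polarising cytokine. M2 had 2 libraries per genotype and M0 had 1 library per genotype, and the genotypes were pooled here. The remaining 4 libraries (M1), given interferon-gamma (50 ng/ml) and LPS (20 ng/ml) for 24 h, are shown beside the results where they help. The labels call the stimulated pairs biological replicates and do not say which animals they came from, so the errors below measure the spread between these libraries.

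Trimethylation of histone H3 at lysine 27 is placed by Polycomb repressive complex 2, whose catalytic subunit is Ezh2, and is read by the Cbx proteins of Polycomb repressive complex 1. It marks silent developmental genes and genes of other lineages, and in mammals Polycomb complexes are recruited mainly to unmethylated stretches rich in CpG dinucleotides. IL-4 acts through its receptor, the adaptor Irs2 and the transcription factor Stat6, and the SOCS proteins restrain this signal. Kdm6b is a demethylase of the same lysine that IL-4 is known to induce in macrophages.

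The deposited files list regions of enriched tags for each library separately. The M0 libraries differed from all others in more than the stimulus, because their file headers give a fragment length of 352 bp (WT) and 372 bp (KO), against 178 to 190 bp in the M2 libraries. M0 libraries held 12.6 and 14.5 megatags and M2 libraries 14.2 to 20.9 megatags. Fragment length and the absence of IL-4 cannot be told apart in these files, and no M0 library has a replicate of its genotype. The M1 libraries had fragment lengths of 178 to 190 bp and are therefore matched to M2 in this respect.

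The promoters that separated the states differed in sequence, and 6 of them are shown here for that reason. Each run is the 250 bases before the gene start in the RefSeq promoter table (GRCm38.p6), 5′ to 3′ on the gene's strand, with every CpG in capitals. Socs1, Dusp2 and Irs2 were covered by H3K27me3 regions in both M0 libraries and in no M2 library, and their runs hold 13, 19 and 34 CpGs. Il20, Il9 and Tek were covered in all 4 M2 libraries and in no M0 library, and each run holds 2 CpGs. The window around the Il20 start was at 49.975% and 43.6% in M0, just under the mark of 50% used for a covered promoter. These genes were chosen after their values were seen.
Socs1 (chr16:10785537-10785786; minus strand): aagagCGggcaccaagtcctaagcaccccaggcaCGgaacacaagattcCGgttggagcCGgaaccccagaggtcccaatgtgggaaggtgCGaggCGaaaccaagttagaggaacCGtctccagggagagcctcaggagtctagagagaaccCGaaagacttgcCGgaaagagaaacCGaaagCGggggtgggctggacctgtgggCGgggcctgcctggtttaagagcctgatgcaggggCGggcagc
Dusp2 (chr2:127335909-127336158; plus strand): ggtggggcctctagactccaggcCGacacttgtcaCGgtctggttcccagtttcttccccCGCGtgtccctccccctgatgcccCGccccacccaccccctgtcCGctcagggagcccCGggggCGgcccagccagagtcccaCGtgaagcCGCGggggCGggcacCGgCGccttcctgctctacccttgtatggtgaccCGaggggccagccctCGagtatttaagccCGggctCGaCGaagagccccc
Irs2 (chr8:11008930-11009179; minus strand): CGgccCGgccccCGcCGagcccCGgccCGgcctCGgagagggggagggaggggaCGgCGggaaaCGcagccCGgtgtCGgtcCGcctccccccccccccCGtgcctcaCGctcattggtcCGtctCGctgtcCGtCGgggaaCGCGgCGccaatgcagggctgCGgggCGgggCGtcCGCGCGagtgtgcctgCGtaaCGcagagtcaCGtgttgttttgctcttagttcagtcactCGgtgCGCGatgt
Il20 (chr1:130911297-130911546; minus strand): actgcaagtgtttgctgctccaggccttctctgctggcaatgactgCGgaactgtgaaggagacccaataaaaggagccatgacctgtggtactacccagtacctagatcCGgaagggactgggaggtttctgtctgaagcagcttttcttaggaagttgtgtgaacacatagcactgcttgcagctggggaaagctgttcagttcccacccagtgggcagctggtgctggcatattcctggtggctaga
Il9 (chr13:56482258-56482507; minus strand): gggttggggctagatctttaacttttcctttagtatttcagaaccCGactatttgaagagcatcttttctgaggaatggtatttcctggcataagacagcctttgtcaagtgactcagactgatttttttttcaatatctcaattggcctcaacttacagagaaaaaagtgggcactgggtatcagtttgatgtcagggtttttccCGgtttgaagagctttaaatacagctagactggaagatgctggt
Tek (chr4:94739039-94739288; plus strand): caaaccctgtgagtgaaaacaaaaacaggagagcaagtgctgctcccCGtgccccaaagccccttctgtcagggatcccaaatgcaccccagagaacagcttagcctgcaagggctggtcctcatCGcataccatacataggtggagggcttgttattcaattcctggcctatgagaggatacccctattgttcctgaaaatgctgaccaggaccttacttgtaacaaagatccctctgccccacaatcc

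Regions were wider and weaker in M2 than in M0. Mean region width was 4.84 kb in WT M0 and 4.82 kb in KO M0, and it was 6.25, 7.57, 7.11 and 6.4 kb in WT M2 replicates 1 and 2 and KO M2 replicates 1 and 2. All 4 M2 libraries lay above both M0 libraries (6.83 ± 0.620 kb, SD, n = 4, against 4.83 ± 0.0167 kb, SD, n = 2; exact two-sided permutation p = 0.133, adjusted over 7 library measures 0.187). With 15 arrangements of the labels, 0.133 is the smallest p this design allows, so no library measure could pass 0.05. The autosomal length under regions was 156 and 176 Mb in M0 and 179 to 250 Mb in M2, which also did not overlap. The number of regions did overlap, with 32209 and 36468 in M0 and 28658 to 34378 in M2 (exact permutation p = 0.533). Tag density inside regions, in tags per kb scaled by the authors to 10 megatags, was 39.9 and 36.3 in M0 and only 18.9 to 28.6 in M2. The tag threshold of the caller was 15.9 and 14.5 per kb on the same scale in M0 and 12.9 to 14.8 in M2, so a region could be called on slightly fewer tags in most M2 libraries; its part in the width was not tested. WT M2 replicate 1 was the weakest M2 library, with 41.3% of its tags in regions against 56.5% to 61.3% in the other M2 libraries and 62.6% and 64.1% in M0.

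**Figure D1:**
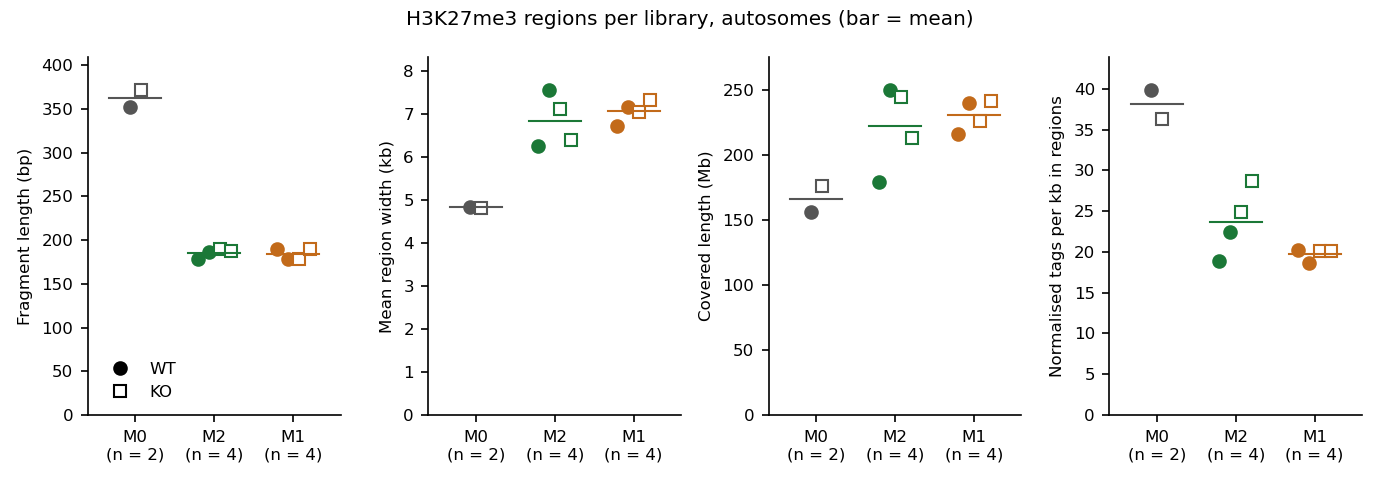
Each panel plots 1 value per library (filled circles WT, open squares KO) for M0, M2 and M1, with the group mean as a bar: fragment length in bp, mean region width in kb, covered autosomal length in Mb and normalised tags per kb in regions. The M0 libraries stand apart at 352 and 372 bp, while M2 and M1 share fragment lengths of 178 to 190 bp and similar widths.

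More CpG-rich gene starts lay under H3K27me3 regions in the M0 than in the M2 libraries. A promoter was called covered when at least 50% of the window from 1 kb before to 1 kb after its start lay under regions, and CpG-rich when its 300 bases around the start had an observed to expected CpG ratio of at least 0.6 and at least 50% G + C. Of 7777 CpG-rich promoters, 25.4% and 25.6% were covered in M0 and 20.0%, 21.9%, 22.5% and 23.3% in the M2 libraries. The 2 groups did not overlap (M2 21.9% ± 1.42, SD, n = 4; M0 25.5% ± 0.145, SD, n = 2; exact permutation p = 0.133). Among 8680 CpG-poor promoters the groups overlapped, with 24.6% and 25.9% in M0 and 19.9% to 26.4% in M2 (exact permutation p = 0.933). Just downstream of CpG-rich starts, mean cover was 26.7% and 26.6% in M0 and 20.4% to 23.8% in M2, whereas nearly 10 kb upstream it was 14.5% and 16.1% in M0 and 15.2% to 21.3% in M2. At equal covered length in every library, the M2 minus M0 difference was -7.74 points at CpG-rich and -6.16 points at CpG-poor promoters (exact permutation p = 0.133 for each), so the contrast between the classes was much smaller there. The M1 libraries, with the M2 fragment length, covered 21.6% to 22.4% of CpG-rich promoters.

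**Figure D2:**
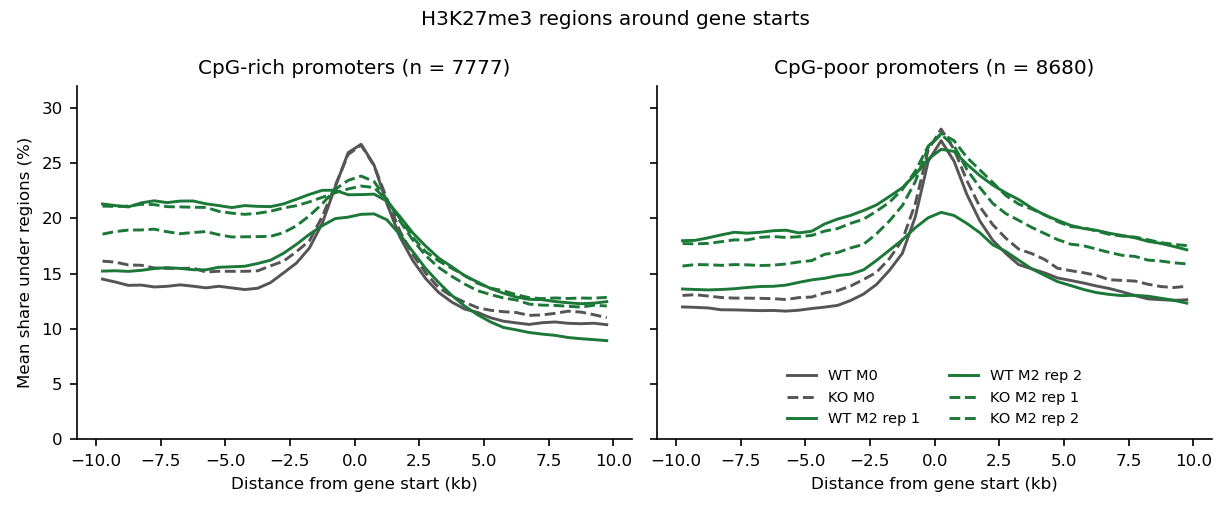
Lines show the mean share of each 500-base step under H3K27me3 regions, in percent, against distance from the gene start in kb, for CpG-rich and CpG-poor promoters (grey M0, green M2; solid WT, dashed KO). At CpG-rich starts the M0 lines peak at 26.7% and 26.6%, above every M2 line, and fall to or below most M2 lines away from the start; at CpG-poor starts the peaks overlap.

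Promoters covered in a single state followed the same division. In both M0 and no M2 library, 158 of 5608 promoters with cover in any of the 6 libraries were covered (2.82%), and in all 4 M2 and no M0 library 56 were (0.999%). The M0-only promoters had a median of 22 CpGs per 300 bases and 65.8% of them were CpG-rich. That share was 47.3% over all promoters and 50.6% over those covered in all 6 libraries. The M2-only promoters had a median of 2 CpGs, and 1 of 56 was CpG-rich. Promoters covered in all 6 libraries had a median of 16 CpGs and those covered in none had 14, so M0-only promoters lay above and M2-only promoters below the common level of 14 over all 16457 promoters. Between KO M0 and KO M2 replicate 2, which have 14.5 and 14.2 megatags and the same tag threshold of 21 per kb, 375 promoters were covered in M0 alone with a median of 16 CpGs and 214 in M2 alone with a median of 3. Of these 375 promoters 49.9% were CpG-rich. At equal covered length the M0-only promoters had a median of 17.5 CpGs and 52.8% were CpG-rich. The excess of CpG-rich promoters in the M0-only set was thus small or absent in these 2 settings. When only the upper 50% of regions by score was kept, the medians were 18 and 15 CpGs, so the low CpG content of the M2-only set did not hold among the strongest regions. The M1 libraries covered 48 to 53 of the 56 M2-only promoters and 13 to 22 of the 158 M0-only promoters.

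**Figure D3:**
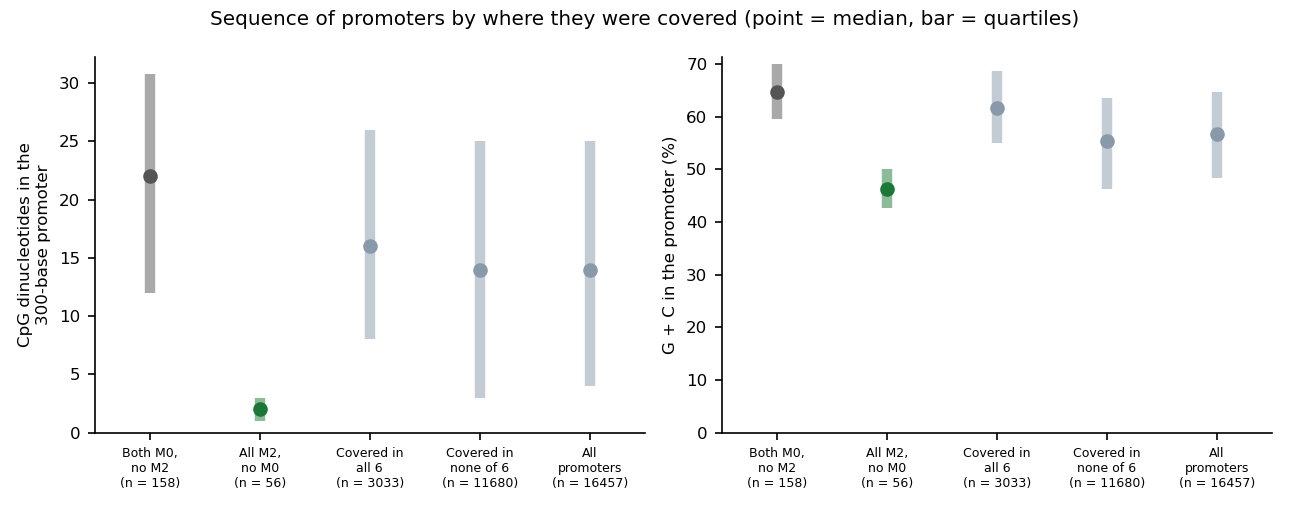
Points give the median and bars the quartiles of CpG number per 300-base promoter (left) and of G + C in percent (right) for promoters covered in both M0 and no M2 library, in all M2 and no M0 library, in all 6, in none of the 6, and for all promoters. M0-only promoters sit highest with a median of 22 CpGs and M2-only promoters lowest with a median of 2.

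Across the genome the M2-only part was larger, and in both directions most runs lay next to a bin called in the other state. Of 325998 autosomal bins of 1 kb called in at least 1 of the 6 libraries, 96867 were called in all 6, 3368 in both M0 and no M2 library (1.03%) and 20195 in all M2 and no M0 library (6.19%). Of the M2-only bins 2.72% lay within 2 kb of a gene start, against 11.9% of the M0-only bins and 5.69% of all called bins. Joined into runs, the M2-only bins formed 11443 runs, of which 79.2% touched a bin called in M0 and 348 reached 5 kb. The M0-only bins formed 2777 runs, of which 83.6% were a single bin and 7 reached 5 kb. The longest M0-only run, 7 kb at chr16:10781001-10788000, held the SOCS gene Socs1 and the neighbouring transition protein gene Tnp2. When every library was cut to the same covered length by region score, the bins divided into 6449 M0-only and 6055 M2-only, so the excess of M2-only bins was not kept at equal covered length.

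Few gene bodies were covered in a single state. For gene bodies the same mark of 50% under regions was used. Of 8506 autosomal protein-coding genes with any cover in the 6 libraries, 70 were covered in both M0 and no M2 library (0.823%) and 142 in all M2 and no M0 library (1.67%). The median length of the M0-only genes was 5.66 kb and that of the M2-only genes 19.9 kb, against 23.3 kb over all genes tested. The last set needs only some cover, and a narrow region reaches the mark of 50% more readily in a short gene. The part of this measure in the lengths was not tested. In a limma fit of percent cover with genotype as a term, 188 genes were lower in M2 (2.21%) and 108 higher (1.27%) at an adjusted p below 0.05, and the median difference over all genes was 0. Leaving out WT M2 replicate 1 raised the M2-only genes from 142 to 270, leaving out WT M0 raised the M0-only genes from 70 to 153, and at equal covered length the counts were 144 M0-only and 28 M2-only. Within a single genotype, 315 M0-only and 323 M2-only genes were counted in WT, and 167 and 361 in KO.

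Among the SOCS genes, Socs1 was the 1 whose body was covered in M0 only. Socs1 (chr16:10783808-10785536), which blocks JAK kinases downstream of the IL-4 and interferon receptors, had 100% of its body and of its promoter window covered in both M0 libraries and 0% in all 4 M2 libraries, and also 0% in all 4 M1 libraries. Its limma difference was -100 percentage points (adjusted p = 1.48e-07), a p that rests on the absence of any spread within either group. With the upper 50% of regions by score the difference was -50.0 points (adjusted p = 0.722), since 1 M0 library held Socs1 in a region of lower score. The Socs3 promoter window was covered 100% in both M0 libraries and 20.0%, 33.7%, 32.4% and 38.8% in the M2 libraries. Over the body of Socs3 (chr11:117966079-117970336), an inhibitor best known for IL-6 signalling, cover was 100% in M0, 57.8% to 71.9% in M2 and 0% in all M1 libraries. The 3 groups did not overlap, with M2 in the middle; the M2 minus M0 difference was -32.9 points (limma adjusted p = 0.0764) and the M2 minus M1 difference 67.1 points (adjusted p = 0.00764). Cish, a SOCS family member induced by Stat5, had 100% and 79.7% in M0 against 21.7%, 40.5%, 64.2% and 64.8% in M2, which did not overlap but missed the threshold (adjusted p = 0.344).

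Among the 41 cytokine feedback and immediate early genes, 20 had cover in at least 1 library, 3 were lower in M2 by the fit (Socs1, Dusp2 and Klf4) and 1 was higher (Egr3), beside 2.21% lower and 1.27% higher of all genes tested. The median M2 minus M0 difference of the 20 was -7.43 points, beside 0 for all genes tested. Of 30 members with a promoter in the reference, 11 were covered in each M0 library and 4, 5, 6 and 7 in the M2 libraries. Over all 16457 promoters, 4110 and 4239 were covered in M0 and 3281, 3904, 4045 and 4078 in the M2 libraries, in the same order. Dusp2, a nuclear phosphatase that switches off MAP kinases, had its promoter window covered 100% in both M0 libraries and 0%, 0%, 0% and 3.55% in M2. Over the Dusp2 body the values were 50.0% and 63.4% in M0 and 0% in each M2 and each M1 library (difference -56.7 points, adjusted p = 0.0178, and up to 0.115 when 1 M2 library was left out). No library had Dusp2 in the upper 50% of regions by score. Klf4, a Krüppel-like factor that cooperates with Stat6 in macrophages, had 55.1% and 43.9% in M0 and 0% in every M2 library (difference -49.5 points, adjusted p = 0.0165, and up to 0.111 when 1 M2 library was left out). Klf4 in the M1 libraries ranged from 0% to 23.9%. The promoter of the orphan nuclear receptor gene Nr4a2 was covered 89.2% and 62.8% in M0 and 0% to 39.1% in M2.

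Genes of the IL-4 response ranged from bare to wholly covered. The receptor gene Il4ra, the signal transducer Stat6 and the effector genes Arg1, Retnla, Mrc1 and Cd36 had no called region over their bodies in any of the 6 libraries. The promoter of the adaptor gene Irs2 was covered 100% in both M0 libraries and 0%, 0%, 17.5% and 28.7% in the M2 libraries, and 15.3% to 38.5% in M1. Of 39 measured genes of the IL-4 response 26 had cover (66.7%, beside 41.2% of all 20665 genes). By library 8 and 8 of the 39 were covered in M0 (20.5% each) and 2, 5, 6 and 8 in M2 (5.13%, 12.8%, 15.4% and 20.5%). Over all genes these shares were 14.1% and 15.2% in M0 and 11.6%, 16.3%, 16.9% and 16.2% in M2. The lowest value of each M2 series was that of WT M2 replicate 1. Of the 26, none was covered in a single state, 2 were lower in M2 by the limma fit (Klf4 and Batf3) and 0 were higher. The median difference of the 26 was -2.33 points. At an unadjusted p below 0.05 these counts were 9 lower (34.6%) and 0 higher, beside 8.18% lower and 9.41% higher of all 8506 genes tested. Other lists also leaned lower: cytokine feedback (8 lower and 1 higher of 20), LPS and interferon (5 and 0 of 19) and lipid handling (4 and 1 of 7). So did the H3K27 methylation machinery (4 and 0 of 13) and macrophage identity (2 and 0 of 7). Lymphoid (1 and 5 of 25) and developmental factors (0 and 8 of 69) leaned higher. Batf3, a bZIP factor of dendritic cells, had 54.3% and 46.5% in M0 and 29.1% to 33.4% in M2 (difference -19.0 points, adjusted p = 0.0423). Kdm6b had 23.9% and 35.1% in M0 and 1.31%, 8.09%, 8.18% and 19.4% in M2, with no overlap but an adjusted p of 0.165. Tgm2, a transglutaminase used as a marker of IL-4-treated macrophages, had 47.9% and 70.4% in M0 and 0% to 25.2% in M2 (adjusted p = 0.144). Ch25h, which makes 25-hydroxycholesterol, had 88.7% and 90.3% in M0, 0% in both WT M2 libraries and 65.8% and 61.6% in the KO M2 libraries. Cd209a, a C-type lectin gene, had 89.8% and 22.9% in M0 and 100% in every M2 library.

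Egr2 was the gene at which M2 stood furthest below both other states. Egr2 is a zinc finger transcription factor induced by IL-4 through Stat6, and its body lies at chr10:67534469-67542188. Cover was 93.2% and 91.3% in M0, 40.1%, 44.8%, 52.6% and 63.8% in M2, and 81.9% to 85.6% in the 4 M1 libraries. All 4 M2 libraries lay below the other 6, and the gap of 18.1 points was the largest of the 12 genes, of 8693 with any cover (0.138%), for which this held. The limma difference was -41.9 points against M0 (SE 6.36, adjusted p = 0.0915) and -32.9 points against M1 (adjusted p = 0.311), so neither passed the threshold. The Egr2 promoter window was covered 83.6% to 97.4% in M2 and 100% in every M0 and M1 library. Leaving out any 1 library left the difference from M0 between -50.8 and -33.1 points. This way of reading M2 against both other states was chosen after the values were seen.

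In the opposite direction, 27 genes (0.311%) had all 4 M2 libraries above the other 6, 4 of them by more than 10 points. Adora2a, an adenosine receptor (chr10:75316877-75334792), had 80.8% and 81.0% in M0, 100% in every M2 library and 55.0% to 62.7% in M1. It passed the threshold against M0 (difference 19.1 points, adjusted p = 1.96e-05) and against M1 (difference 41.1 points, adjusted p = 0.0140). Ahsg, which encodes the liver plasma protein fetuin-A, had 48.5% and 43.5% in M0, 100% in every M2 library and 41.6% to 73.3% in M1 (adjusted p = 0.00191 against M0 and 0.390 against M1). Serpina3f, a serpin gene, had 48.4% and 0% in M0 and 97.2% to 100% in M2, and Cacng3, a neuronal channel subunit gene, had under 5% in both M0 libraries and 44.4% to 85.2% in M2. Over all genes, the limma fit of M2 against M1 called 4 of 8137 (0.0492%): Nos2, Socs3, Adora2a and Spink4. Nos2, the inducible nitric oxide synthase of M1 cells, had 89.6% and 92.8% in M0, 82.2%, 92.0%, 91.9% and 92.0% in M2 and 0% to 14.0% in M1. The M2 minus M0 difference of Nos2 was -1.63 points (adjusted p = 0.844), while with the upper 50% of regions by score it was 89.5 points (adjusted p = 0.00404), since neither M0 library had Nos2 in that upper part.

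Besides Socs1, 3 of the named genes went from nearly full cover in M0 to none in M2. H2ac1, a histone H2A gene, Id1, an inhibitor of basic helix-loop-helix factors, and Erich4 had 99.5% to 100% in M0 and 0% in every M2 library (limma adjusted p at most 9.79e-07 for each). Id1 was also at 0% in 3 M1 libraries and at 97.2% in the other. Of 31 measured macrophage identity genes 7 had any cover. The complement gene C1qa, not an M0-only gene, had 92.7% and 95.5% in M0 and 0%, 43.3%, 0% and 66.8% in M2, which did not overlap (adjusted p = 0.362).

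Of 23 genes of the H3K27 methylation machinery 13 had any cover. Ezh2, Eed and Suz12, the core of Polycomb repressive complex 2, had no called region in any of the 6 libraries. Cbx2, which encodes a chromodomain subunit of Polycomb repressive complex 1, had 81.4% and 81.5% in M0 and 8.16%, 32.2%, 42.1% and 24.997% in M2 (adjusted p = 0.137), and the sign turned with the upper 50% of regions (10.2 points). Bmi1, the ring finger subunit Pcgf4, moved less, from 51.6% and 52.2% in M0 to 36.6% to 42.9% in M2 (adjusted p = 0.100). Of the list's 23 genes, 6 were covered in each M0 library (26.1%) and 3 in each M2 library (13.0%). Over all 20665 genes the shares were 14.1% and 15.2% in M0 and 11.6% to 16.9% in M2.

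The remaining M0-only genes named by the size of their gap were Gltpd2, Fgfbp3, Foxs1, Sit1, Dtx3, Castor1 and Hes6. Their M0 cover ranged from 51.7% to 100%, and 5 of the 7 were at 0% in every M2 library. Castor1, a sensor of arginine for mTORC1, had 82.0% and 91.9% in M0 and 0%, 0%, 23.6% and 0% in M2 (adjusted p = 0.0425, and up to 0.190 when 1 library was left out). Foxs1, a forkhead factor, had 67.0% and 100% in M0 and missed the threshold (adjusted p = 0.0508). Hes6, a helix-loop-helix factor, had 54.1% and 51.7% in M0, just past the 50% mark (adjusted p = 0.000337). Ltb4r1, the leukotriene B4 receptor, was counted as M0-only at 71.2% and 70.4% in M0, but 2 of its M2 libraries were at 49.7%, just under the mark, and its adjusted p was 0.419.

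**Figure D4:**
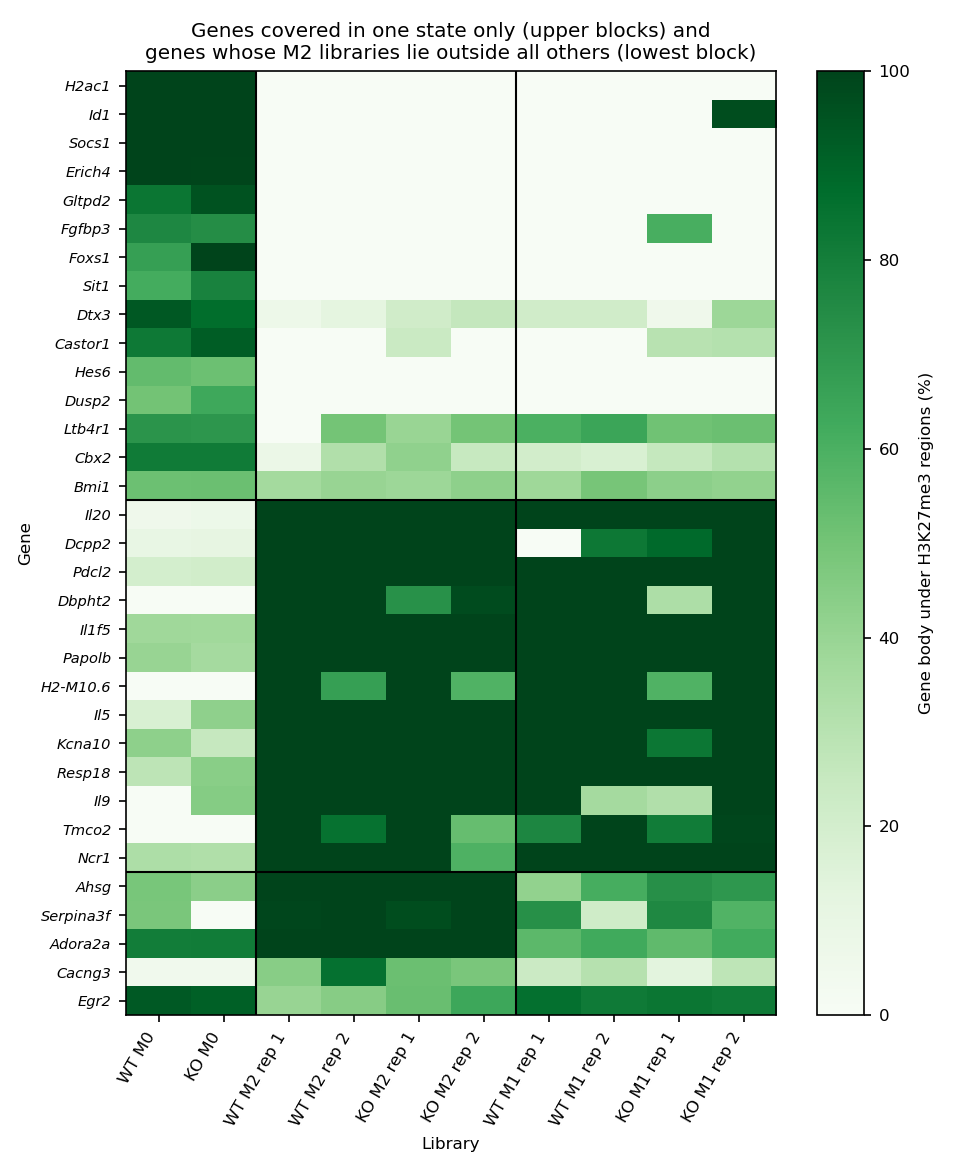
Shading gives the percent of each gene body under H3K27me3 regions in each of the 10 libraries, for M0-only genes (top), M2-only genes (middle) and genes whose M2 libraries lie outside all others by more than 10 points (bottom). Socs1 is at 100% in both M0 libraries and 0% in every other, and Egr2 is at 40.1% to 63.8% in M2 and at 81.9% or more elsewhere.

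Among the 12 M2-only genes with the widest gap were the interleukin family genes Il20, Il5, Il9 and Il1f5. How many such genes the whole M2-only set held was not counted. Il20, a cytokine of the IL-10 family (chr1:130906985-130911296), had 5.61% and 7.26% in M0 and 100% in every M2 library (difference 93.6 points, adjusted p = 2.50e-05), and 100% in all M1 libraries. Il5, the eosinophil growth factor of type 2 lymphocytes, had 18.0% and 42.5% in M0 and 100% in each M2 library (difference 69.8 points, adjusted p = 0.0415, and up to 0.179 when 1 M2 library was left out). Il9, a mast cell growth factor, had 0% and 45.1% in M0 and 100% in each M2 library, but its M0 spread kept it from the threshold (adjusted p = 0.100). Il1f5, the IL-36 receptor antagonist gene, had 37.8% and 37.2% in M0 and 100% in each M2 library (adjusted p = 6.64e-06), yet with the upper 50% of regions by score the difference was -7.85 points and at equal covered length -12.5 points. Pdcl2 and Papolb, which are expressed in male germ cells, rose from 19.7% and 20.8%, and from 39.9% and 35.9%, to 100% in each M2 library. Dcpp2, Dbpht2, H2-M10.6, Kcna10, Resp18 and Tmco2 completed the list, with 0% to 43.9% in M0 and 53.2% to 100% in M2. H2-M10.6 and Tmco2 missed the threshold (adjusted p = 0.163 and 0.147). The M1 libraries covered 133 to 140 of the 142 M2-only genes. Both stimulated groups are set against the same 2 M0 libraries, and limma of M2 against M1 called 0 of the 142 (11 at an unadjusted p below 0.05; in 3 all M2 libraries lay above all M1 libraries and in 5 below). Over all 8137 genes of that fit 4 were called (0.0492%) and 560 were at an unadjusted p below 0.05. At such a share, 0 of 142 says little about these genes in particular.

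Markers of other cell types were covered in part, at most 53.3% of any list in a library. Over all 20665 genes, 14.1% and 15.2% were covered in M0 and 11.6%, 16.3%, 16.9% and 16.2% in the M2 libraries. The lowest M2 counts of the lymphoid, granulocyte and stromal lists were in WT M2 replicate 1, which also had the lowest share of all genes. Of 30 lymphoid genes 11 and 15 were covered in M0 and 12 to 16 in M2, with a median difference of 5.02 points over the 25 with cover and 0 passing the limma fit (1 lower and 5 higher at an unadjusted p below 0.05). The natural killer receptor gene Ncr1 was the single one covered in all M2 and no M0 library, with 33.4% and 32.7% in M0 and 100%, 100%, 100% and 59.2% in M2 (adjusted p = 0.211). The promoter of the recombinase gene Rag1 was covered 0% and 50.0% in M0 and 62.6% to 100% in M2. Cd79b, of the same list, went the other way. Its body had 23.9% and 85.9% in M0 and 0% in every M2 and M1 library (limma adjusted p = 0.261). Among 28 measured granulocyte, erythroid and dendritic genes 6 and 7 were covered in M0 and 5 to 10 in M2, and the promoter of the calprotectin subunit gene S100a9 went from 0% in both M0 libraries to 64.0% to 100% in M2. The serine protease gene Prtn3 went the other way, with 55.8% and 91.5% of its promoter window covered in M0 and 0% to 35.9% in M2. Among 24 stromal and epithelial genes 7 were covered in each M0 library and 3 to 10 in M2. The promoter of Tek, the angiopoietin receptor, was at 0% in both M0 libraries and at 71.0% to 100% in M2. Of 19 measured housekeeping genes none was covered in any of the 6 libraries, and Ywhaz, the 1 with any cover, stayed between 2.43% and 15.5%.

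The other lists held few calls at an adjusted p below 0.05. Among 42 LPS and interferon response genes, 19 had cover and 2 were lower in M2 by the fit, namely Il12b and Cd80, whose M0 cover was at most 6.24%. In the lipid handling list Fabp5, a fatty acid binding protein, had 34.6% and 30.9% in M0 and 0% in every M2 library (adjusted p = 0.00336), and cover fell by 2.31 points at Plin2, a lipid droplet coat gene, and by 7.07 points at Rxra, a nuclear receptor gene. Among 30 stress response and serine synthesis genes 0 passed the limma fit (2 lower and 1 higher at an unadjusted p below 0.05), and the promoter of Chac1, a glutathione-degrading enzyme induced by that response, was covered 79.96% and 84.9% in M0 and 0%, 0%, 69.0% and 25.2% in M2. Of the 36 chemoattractant and lipid mediator receptors 0 passed the limma fit (0 lower and 1 higher at an unadjusted p below 0.05), and the promoter of Cmklr1, the chemerin receptor, was covered 79.4% and 100% in M0 and 0% to 44.1% in M2. Over all 463 measured genes of the 14 lists, 7 bodies were covered in M0 only and 1 in M2 only, and among 335 with a promoter these counts were 7 and 3. The shares over all genes with cover were 0.823% and 1.67% for bodies and 2.82% and 0.999% for promoters, and 280 of the 463 had cover.

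Where a gene was covered in every library, the amount of mark was compared as log2 tags per kb of called region, each library centred on its median over these 1980 genes. At an adjusted p below 0.05, 433 genes were lower in M2 (21.9%) and 404 higher (20.4%). Without centring the median gene was 0.71 lower in M2 on the log2 scale, 1116 genes were lower and 2 higher, so the directions below are relative to the median gene. The spread of log2 density across genes was 0.87 and 0.82 (SD) in M0 and 0.45 to 0.61 in M2, so the strongest genes of M0 lay closer to the rest in M2. After quantile normalisation, which removes this difference in spread, 64 genes were lower (3.23%) and 47 higher (2.37%). Wider regions average tags over more sequence, and the part of region width in these differences was not tested.

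Most Hox genes and many developmental regulators were lower relative to the median gene with centring, and few after quantile normalisation. Hox genes, which fix position along the body axis, were covered in 36 to 38 of 39 cases in the 6 libraries, and of 35 covered in all, 31 were lower in M2 with a median of -0.41. Neighbouring Hox genes share regions, and these 31 genes hold 10 distinct measurements. After quantile normalisation 1 was lower and the median was 0.03. Of 58 other developmental transcription factors 34 were lower with a median of -0.40, and after quantile normalisation 5 were lower with a median of 0.00. All 45 of these factors with a promoter in the reference had it covered in every library. By gene body, 3 of the 69 were higher in M2, namely Pax2, Tbx15 and Six2. Six2, a homeobox factor of kidney progenitors, had 58.1% and 59.0% in M0 and 82.3% to 90.2% in M2 (adjusted p = 0.0496, and up to 0.226 when 1 library was left out). The thyroid and kidney factor gene Pax8 had 22.8% and 29.4% in M0 and 41.9% to 80.2% in M2 without passing the fit (adjusted p = 0.323).

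**Figure D5:**
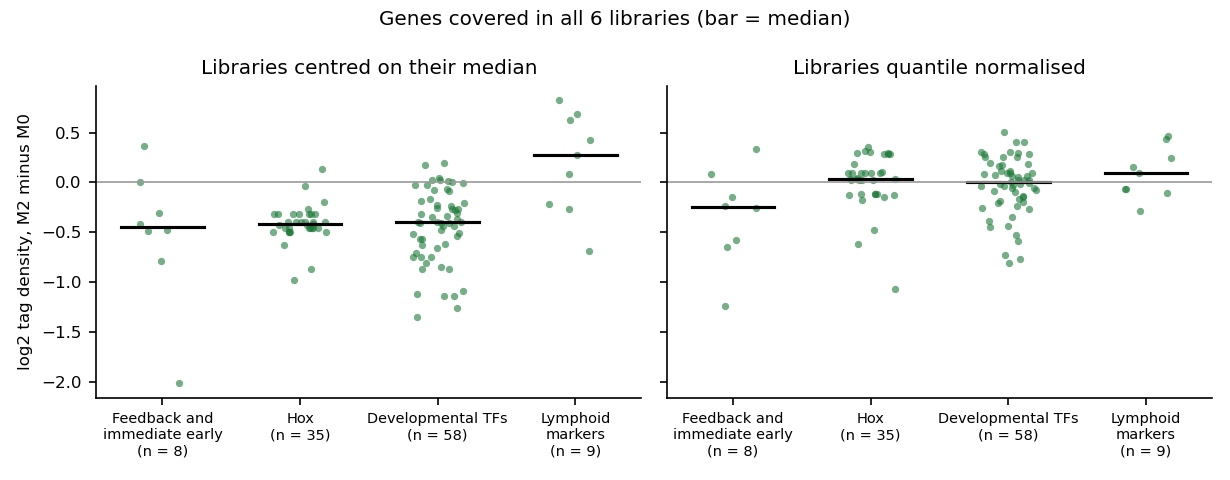
Points are genes covered in all 6 libraries, plotted as the log2 difference in tags per kb of region (M2 minus M0), with list medians as bars, for lists with at least 8 such genes. The Hox median moves from -0.41 with median centring (left) to 0.03 after quantile normalisation (right).

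The genes named here for the largest density loss all kept an adjusted p below 0.05 after quantile normalisation. Egr3, an immediate early zinc finger factor related to Egr2, had 325 and 287 tags per kb in M0 and 29.3, 46.1, 48.0 and 71.4 in M2 (log2 difference -2.01 centred, adjusted p = 1.68e-05; -1.24 quantile normalised, adjusted p = 0.00361). Its cover rose at the same time from 91.2% and 91.4% to 100%, so the same locus was broader and weaker in M2. Nkx2-4, a homeobox factor, had 217 and 341 tags per kb in M0 and 27.8 to 56.9 in M2 (-2.03 and -1.29). Tpbg, Rassf10, Insm2, Gpr135, Shisa3, Fzd9 and Dmrta2 followed, with centred differences from -1.98 to -1.56.

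The genes with the largest relative gain had little mark in M0. Over all 1980 genes the centred difference was lower where the density level was higher (Spearman correlation -0.737). After quantile normalisation the correlation was 0.0008, so the low M0 density is not particular to the genes named here. Ifna2, Ifna16 and Ifna13 are type I interferon genes of the chromosome 4 cluster. They had 19.0 to 23.9 tags per kb in M0 and more than 25 in every M2 library, up to 35.5. Ifna2 and Ifna16 had equal densities in every library but KO M0, so they are largely the same measurement. Kcnmb1, a subunit of a calcium-activated potassium channel, had 19.8 and 18.0 in M0 and 21.9, 29.9, 30.5 and 31.3 in M2, above M0 in all 4 libraries (1.28 centred, adjusted p = 8.25e-05; 0.93 quantile normalised, adjusted p = 0.00361). Gimap8, an immune GTPase, had 19.7 and 22.1 in M0 and 25.6 to 34.0 in M2 (1.24 centred). Prss38, Cd207, Spint5 and Calcoco2 gained 1.13 to 1.31 relative to the median gene, and their tags per kb in M2 overlapped those of M0. After quantile normalisation Prss38, Cd207, Spint5 and Ifna13 no longer passed (adjusted p = 0.0588, 0.0870, 0.0515 and 0.0614). Ccl24, the eotaxin-2 gene that IL-4 induces in macrophages, was the 1 IL-4 response gene covered throughout, with 45.2 and 47.1 tags per kb in M0 and 39.7 to 51.7 in M2 (0.70 centred, adjusted p = 0.00386; 0.84 quantile normalised, adjusted p = 0.0376). Its raw tag densities overlapped between the states.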

How the data were processed

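Regions were called by the authors on each library separately with HOMER findPeaks in region mode (window 1000 bp, minimum distance 2500 bp, FDR 0.001, no input), per the file headers; the build is mm10, and Bowtie2 2.4.2, SAMtools 1.10 and HOMER 4.8 are named in the submitters' processing notes. The deposited normalised tag count (a signal per region) is scaled by the authors to 10 megatags, the deposited findPeaks score ranks regions, and the deposited clonal fold change (a ratio) was not tested. Autosomes 1 to 19 were used. Gene bodies and promoter sequences came from RefSeq GRCm38.p6; 16457 of 20665 protein-coding autosomal genes (79.6%) had a promoter, and none of these starts lay on 1 of the autosomes. Cover was computed per gene body, promoter window and 1 kb bin. limma 3.58.1 (R 4.3.3; robust eBayes, genotype as a term, Benjamini-Hochberg) was fitted over all 8506 genes with cover and, for density, over 1980 genes. Percent cover is bounded, so genes at 0% or 100% in every library of a group get a very small error. Depth was 12.6 to 20.9 megatags, which gives shares of tags in regions a 95% Wilson half-width of at most 0.0267 percentage points (counting error only).

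Named genes were the 12 with the largest gap between groups in each direction (predicted, olfactory and vomeronasal genes left out), list genes called in either direction, up to 4 members per list with the largest mean difference, and up to 10 per direction by density; 5 genes that this rule names are not reported here. The members and lists were chosen with earlier results of these data known, and the CpG classes, quantile normalisation, the M2 to M1 fit and the genes outside both other states were added after values were seen. The authors' deposited tables of genotype comparisons were not used. On simulated data the limma fit found 110 of 200 genes shifted by 40 points among 8506, 81 of 200 shifted by 20 points, and 187 of 200 shifted by 1 log2 unit in density among 1980. False calls numbered 7, 13 and 12 in the same order. The simulated noise was normal and independent between genes, without differences between whole libraries. These rates need not hold for the real libraries. Alternatives were leaving out each library, the upper 50% of regions by score, equal covered length, other cover thresholds and windows, single genotypes, and other fits.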

Additional observations from a re-analysis of the deposited data

Results flagged for a closer look

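In 6 of 42 measures checked over the 4 M2 libraries, 1 library stood apart from the other 3. The rule took the gap to the nearest library as a share of the range. At Castor1, Dcpp2 and Ncr1 the other 3 libraries tied at 0% or 100%. With such a tie the share is 1 whatever the distance, so the small distance at Dcpp2 was flagged too. A chance rate of about 1 in 20 does not apply to such ties, and 6 of 42 was not compared with it. WT M2 replicate 1 covered 19.9% of CpG-poor promoters, against 25.4% to 26.4% in the others. The same library had 82.2% of Nos2 covered against 91.9% to 92.0%, and 99.8% of Dcpp2 against 100%. KO M2 replicate 1 had 23.6% of Castor1 covered where the others had 0%, and 72.5% of Dbpht2 where the others had 97.5% to 100%. KO M2 replicate 2 had 59.2% of Ncr1 covered where the others had 100%.

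At 2 of the genes named, both WT M2 libraries moved one way from the M0 library of their genotype and both KO M2 libraries the other way, and the difference between genotypes was not tested. Cover of Ddit4, a stress-induced inhibitor of mTORC1, fell by 80.2 points in WT and was 8.78 points higher in KO, a difference of -88.9 points. For the cytokine gene Csf3 the changes were -36.5 and 8.41 points (difference -44.9). Each genotype has a single M0 library.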

How the results depend on the processing

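Two-state counts depended on the number of libraries required and on covered length. Leaving out 1 library gave 70 to 153 M0-only and 144 to 270 M2-only genes, 160 to 293 and 58 to 98 promoters, and 3413 to 10691 and 21059 to 32284 bins. It gave 76 to 520 genes lower and 32 to 214 higher in the cover fit, and 220 to 454 lower and 154 to 488 higher in density; WT M0 lowered both density counts most. The cover fit lost most calls without WT M2 replicate 2 or KO M2 replicate 1 (76 and 79 lower, 49 and 32 higher) and gained most without WT M0 or KO M0 (512 and 520 lower, 184 and 214 higher). M0-only genes rose to 108 without KO M0 and 143 without KO M2 replicate 2, M2-only genes to 214 without KO M0 and 270 without WT M2 replicate 1. M0-only promoters rose to 293 without WT M0 and 254 without KO M2 replicate 2, M2-only promoters to 98 without KO M0 and 91 without KO M2 replicate 2. Without WT M2 replicate 1 or KO M2 replicate 2 the cover fit had 112 genes lower, and without the latter 66 higher. The difference in region number went from -4114.5 to 144.5 (144.5 without KO M0), and that in CpG-poor promoters from -1.46 to 0.712 points (0.712 without WT M2 replicate 1); every other library measure kept its sign under each alternative run.

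At equal covered length the counts (M0-only and M2-only) were 144 and 28 genes, 216 and 19 promoters, 6449 and 6055 bins, and the cover fit had 17 genes higher. With the upper 50% by score M2-only counts were 88 genes, 88 promoters and 6425 bins, and the cover fit had 60 lower and 70 higher. Within WT the counts were 315 and 323 genes and 18840 and 56265 bins, within KO 167 and 361 genes and 12450 and 45427 bins, where fewer libraries have to match. KO M0 against KO M2 replicate 2 gave 223 and 417 genes, 375 and 214 promoters, and 20961 and 58504 bins. Gene bodies with 5 kb on either side gave 40 M0-only genes, 2.5 kb windows 91 and 147 promoters, wholly covered bins 2068 M0-only, and 25% of the body 4 M2-only list genes. The cover fit had 176 genes higher with no genotype term and 38 lower with cover of at least 25% in at least 2 libraries. Density not centred gave 1116 lower and 2 higher, and quantile normalisation 64 and 47. The cause of these shifts was not tested.

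Of 838 checks on named genes for cover 23 changed sign and 87 lost their call; of 180 for density 0 and 13 did. Signs turned with the upper 50% by score for Dtx3 (11.3), Il1f5 (-7.85), Cbx2 (10.2), Cbx8 (12.8), Hoxc4 (-7.59), Ywhaz (-4.17), Krt5 (19.4), Krt18 (4.33) and Nos2 (89.5). They turned at equal covered length for Il1f5 (-12.5), Csf3 (0.435), Il1b (-10.6), Hoxc4 (-7.59), Pax1 (-3.76), Ywhaz (-3.57) and Nos2 (44.8). Leaving out 1 library gave ranges of -36.5 to 8.41 for Csf3, -77.4 to 25.7 for Cxcr1, -80.2 to 8.78 for Ddit4, -27.8 to 0.629 for Shmt2, -30.2 to 1.79 for Pdgfrb, -28.2 to 3.71 for Krt18 and -3.62 to 0.579 for Nos2. None of these passed with all 6 libraries, but Csf3 passed without WT M0 at 8.41 (adjusted p = 0.0358) and without KO M0 at -36.5 (adjusted p = 0.0021), and Shmt2 without KO M0 at -27.8 (adjusted p = 0.0428). Of 26 named genes called for cover 12 lost the call in at least 1 leave-out: Castor1, Dbpht2, Dtx3, Dusp2, Gltpd2, Il5, Kcna10, Klf4, Resp18, Rxra, Sit1 and Six2 (adjusted p up to 0.226). The fit with no filter on cover could not be fitted, because most genes had no variance. No paired analysis was possible from the sample titles, because the M0 titles carry no replicate number and each genotype has 1 M0 library. A pairing by any other label was not tested.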
